A study of Caenorhabditis elegans with 2 samples.

Results

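The *skr* genes of *C. elegans* encode relatives of Skp1, and 9 of them, *skr-1*, *skr-2*, *skr-7*, *skr-8*, *skr-9*, *skr-10*, *skr-12*, *skr-13* and *skr-14*, were followed here in single embryonic cells. They were taken by symbol from the 20 genes with an *skr* symbol among the 20191 genes measured, and they were chosen by the UMI counts of *skr-9* and *skr-10*, which were already known to lead a group of early cells in these data. The high levels of these genes in that group are therefore given as a description, with no test. The cells came from embryos that held mostly 100 to 200 cells. There was 1 library of *spr-5; met-2* mutants and 1 of Wild Type. The mutants carried *spr-5(b101)* I and *met-2(n4256)* III and were the F1 progeny of homozygous double mutant mothers, and Wild Type was the laboratory strain N2. The embryos of many mothers were pooled and dissociated with chitinase for each library. *spr-5* encodes an H3K4me1/2 demethylase and *met-2* an H3K9 methyltransferase.

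Skp1 is the adaptor of SCF ubiquitin ligases. It binds the cullin CUL-1 on one side and an F-box protein on the other, and the F-box protein recognises the substrate that is to be ubiquitinated. Most animals have a single Skp1 gene, whereas nematodes have a large family. *skr-1* and *skr-2* are the members closest to Skp1 of other animals and are known for roles in restraining cell proliferation and in the embryo, and *skr-7*, *skr-8*, *skr-9* and *skr-10* are a group of close relatives that are also needed for normal development.

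Each unique molecular identifier (UMI) counts 1 captured transcript, read at its 3′ end, and levels are given as counts per 1000000 UMIs of the cells summed (CPM). The mutant library held 686 cells with 732058 UMIs and a median of 726.5 UMIs per cell, against 219 cells with 1013190 UMIs and a median of 2086 in Wild Type. In Wild Type 18 cells with more than 10000 UMIs held 48.6% of all UMIs, and no mutant cell was that large. There were 11 barcodes taken as cells in both libraries, none of them in the early group described below. With 1 library per genotype no test between genotypes was possible, and every interval, given in parentheses at 95%, covers counting error only.

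The 9 genes fell into 2 kinds by their annotation on ce11 (Ensembl release 115). *skr-1* (WBGene00004807, chromosome I, 9471550 to 9472641, plus strand) and *skr-2* (WBGene00004808, chromosome I, 9469654 to 9470637, plus strand) each had 3 exons and an annotated 3′ UTR, of 318 and 183 bp, and lay in tandem 912 bp apart. The other 7 members each had a single exon and no annotated UTR. The whole family had 12 genes with a single exon, of which 5 were not among the members. *skr-7* (WBGene00004813, chromosome V, 4422427 to 4423011, plus strand) and *skr-14* (WBGene00004820, chromosome V, 4421069 to 4421575, minus strand) were transcribed away from each other, with starts 852 bp apart. *skr-9* (WBGene00004815, chromosome IV, 17163573 to 17164157, plus strand) and *skr-13* (WBGene00004819, chromosome IV, 17162097 to 17162615, minus strand) had starts 958 bp apart in the same arrangement. *skr-8* (WBGene00004814, chromosome IV, 17165250 to 17165834, minus strand) and *skr-12* (WBGene00004818, chromosome IV, 17167274 to 17167792, plus strand) had starts 1440 bp apart, and *skr-8* and *skr-9* pointed toward each other across 1092 bp. No protein-coding gene lay between the genes of any of these pairs. *skr-10* (WBGene00004816, chromosome IV, 15946807 to 15947385, plus strand) had no such partner.

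**Figure D1:**
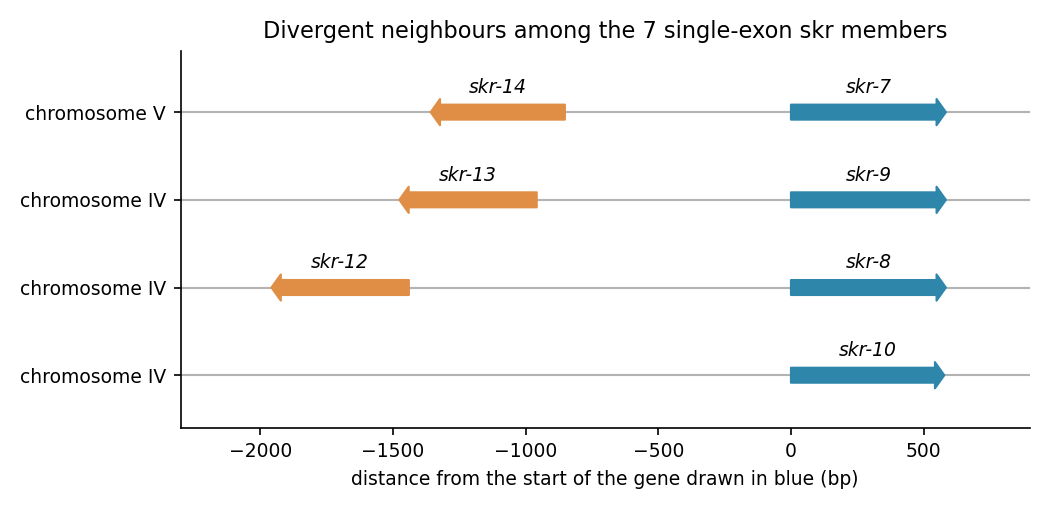
Layout of the 7 members with a single exon, drawn to scale as distance in bp from the annotated start of the gene in blue, with arrows in the direction of transcription. Each gene of 194 codons, *skr-7*, *skr-9* and *skr-8*, lay beside a shorter divergent gene in orange, with starts 852, 958 and 1440 bp apart, and *skr-10* lay alone.

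The coding sequences of *skr-7*, *skr-8* and *skr-9* were each 194 codons long and that of *skr-10* 192 codons. The divergent partners were shorter, with 172 codons in *skr-12* and in *skr-13* and 168 codons in *skr-14*. Close copies can share reads, and Cell Ranger leaves out reads that fit several genes equally well, so the split of UMIs among these 7 genes is uncertain. Reads that ended past the coding sequence may also have been missed where no 3′ UTR is annotated. For this reason levels are compared between cells and genotypes and not between genes, and the close relatives *skr-7*, *skr-8*, *skr-9* and *skr-10* are also given as a sum.

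The cells were clustered without any *skr* gene, which gave 16 clusters. Cluster 2 was called early zygotic-like, because 5 markers of early zygotic transcription were enriched in it, namely *ceh-51*, a homeobox gene of the MS lineage, *sdz-28*, *vet-1*, *vet-2* and *vet-6*. Its 5 leading genes were *Y25C1A.6*, *dsl-2*, *lsy-27*, *sdz-9* and *fbxb-91*. *dsl-2*, a gene of the Delta/Serrate/LAG-2 ligand family, had 1362 CPM in the mutant cells of the cluster and 1647 CPM in its Wild Type cells, against 74.4 and 42.7 CPM in the other cells of each library. The name rests on part of the list, since UMIs of 8 of 19 early zygotic markers in the mutants and of 6 of 19 in Wild Type were found in the cluster, and *pes-10*, *med-1* and *med-2* were at 0 in both. *ceh-51* had 20 UMIs in its mutant cells and 0 UMIs in its Wild Type cells. The summed early zygotic markers were 6.61 times as high in the cluster as in other cells in the mutants and 10.0 times as high in Wild Type. Cell cycle genes were 2.36 and 2.18 times as high there, body wall muscle genes were at 0.22 and 0.49 times the level of other cells, and hypodermis genes were at 0.35 and 0.093 times. Neuron progenitor genes were higher in the cluster, at 1.46 (1.12 to 1.89) times the level of other mutant cells and 3.12 (2.38 to 4.02) times that of other Wild Type cells. Gene by gene, 2 body wall muscle, 2 neuron progenitor and 1 other mesoderm marker were at least 2-fold enriched there, beside the 5 early zygotic markers.

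This cluster held 22 mutant cells (3.21% of the library, 2.02 to 4.82) and 6 Wild Type cells (2.74%, 1.01 to 5.87). Its cells were deeper than the others, with a median of 2346.5 UMIs in the mutants and 4772.5 UMIs in Wild Type, against 722.5 and 2056 UMIs in the other cells. It held 6.42% of all mutant UMIs and 2.88% of all Wild Type UMIs. The part that depth plays in which cells joined the cluster was not tested.

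All 7 single-exon members were high in the early zygotic-like cluster in both libraries. *skr-7* had 2874 CPM in the mutant cells of the cluster, from 135 UMIs, against 191 CPM in the other mutant cells, a fold of 15.03 (11.7 to 19.3). In Wild Type *skr-7* had 3225 CPM in the cluster, from 94 UMIs, against 241 CPM elsewhere, a fold of 13.4 (10.4 to 17.1). A cluster that made up about 3% of the cells thus held 50.8% of all *skr-7* UMIs in the mutants and 28.4% in Wild Type.

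The relatives of *skr-7* had the same pattern. *skr-8* had 1043 CPM in the cluster against 92.0 CPM in other cells of the mutants, and 1167 against 66.1 CPM in Wild Type. *skr-9* had 681 CPM against 37.95 CPM in the mutants, a fold of 17.9 (10.4 to 31.4), from 32 UMIs in the cluster. In Wild Type *skr-9* had 377 CPM against 15.2 CPM, a fold of 24.8 (10.3 to 57.7), which rests on 11 UMIs in the cluster. *skr-10* had 766 CPM against 55.5 CPM in the mutants, a fold of 13.8, and 1098 CPM against 31.5 CPM in Wild Type, a fold of 34.9 (20.6 to 59.1). The cluster held 55.2% of *skr-9* UMIs in the mutants and 42.3% in Wild Type, and 48.6% and 50.8% of *skr-10* UMIs.

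The divergent partners were high in the same cluster as the genes they adjoin. *skr-14*, the neighbour of *skr-7*, had 788 CPM in the cluster against 74.4 CPM in other cells of the mutants, and 961 against 66.1 CPM in Wild Type. *skr-13*, the neighbour of *skr-9*, had 490 against 51.1 CPM in the mutants and 892 against 61.0 CPM in Wild Type. *skr-12*, the neighbour of *skr-8*, had 277 against 21.9 CPM in the mutants and 206 against 16.3 CPM in Wild Type, from 13 and 6 UMIs in the cluster. Within the cluster all 12 mutant and all 5 Wild Type cells with *skr-14* also held *skr-7*, which was in 21 of 22 and 6 of 6 cells there. *skr-9* was in 4 of 12 mutant and 5 of 6 Wild Type cells with *skr-13*, beside 9 of 22 and 5 of 6 cells of the cluster. *skr-8* was in 5 of 6 mutant and 3 of 3 Wild Type cells with *skr-12*, beside 14 of 22 and 5 of 6. These shares follow how often each partner was found, so they cannot show whether neighbours went together in single cells. The sum of *skr-12*, *skr-13* and *skr-14* was 10.5 times as high in the cluster in the mutants and 14.4 times in Wild Type, beside 14.2 and 16.6 times for the sum of *skr-7*, *skr-8*, *skr-9* and *skr-10*.

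*skr-1* did not have this pattern. It had 1001 CPM in the early zygotic-like cells of the mutants against 956 CPM in the other mutant cells, a fold of 1.05, and 618 against 478 CPM in Wild Type, a fold of 1.29. *skr-2* lay between in the mutants only, with 213 against 68.6 CPM, a fold of 3.103. In Wild Type *skr-2* had 343 against 24.4 CPM, a fold of 14.1. That was within the range of the single-exon members there, from 12.7 for *skr-12* to 34.9 for *skr-10*. The *skr-2* folds rest on 10 UMIs in the cluster in each library. Of the 9 members 8 were more than 2-fold higher in the cluster in both libraries, where 4.97% of all genes with at least 20 UMIs were, and 7 were more than 5-fold higher, where 1.46% of genes were. These counts describe the pattern by which the genes were chosen.

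**Figure D2:**
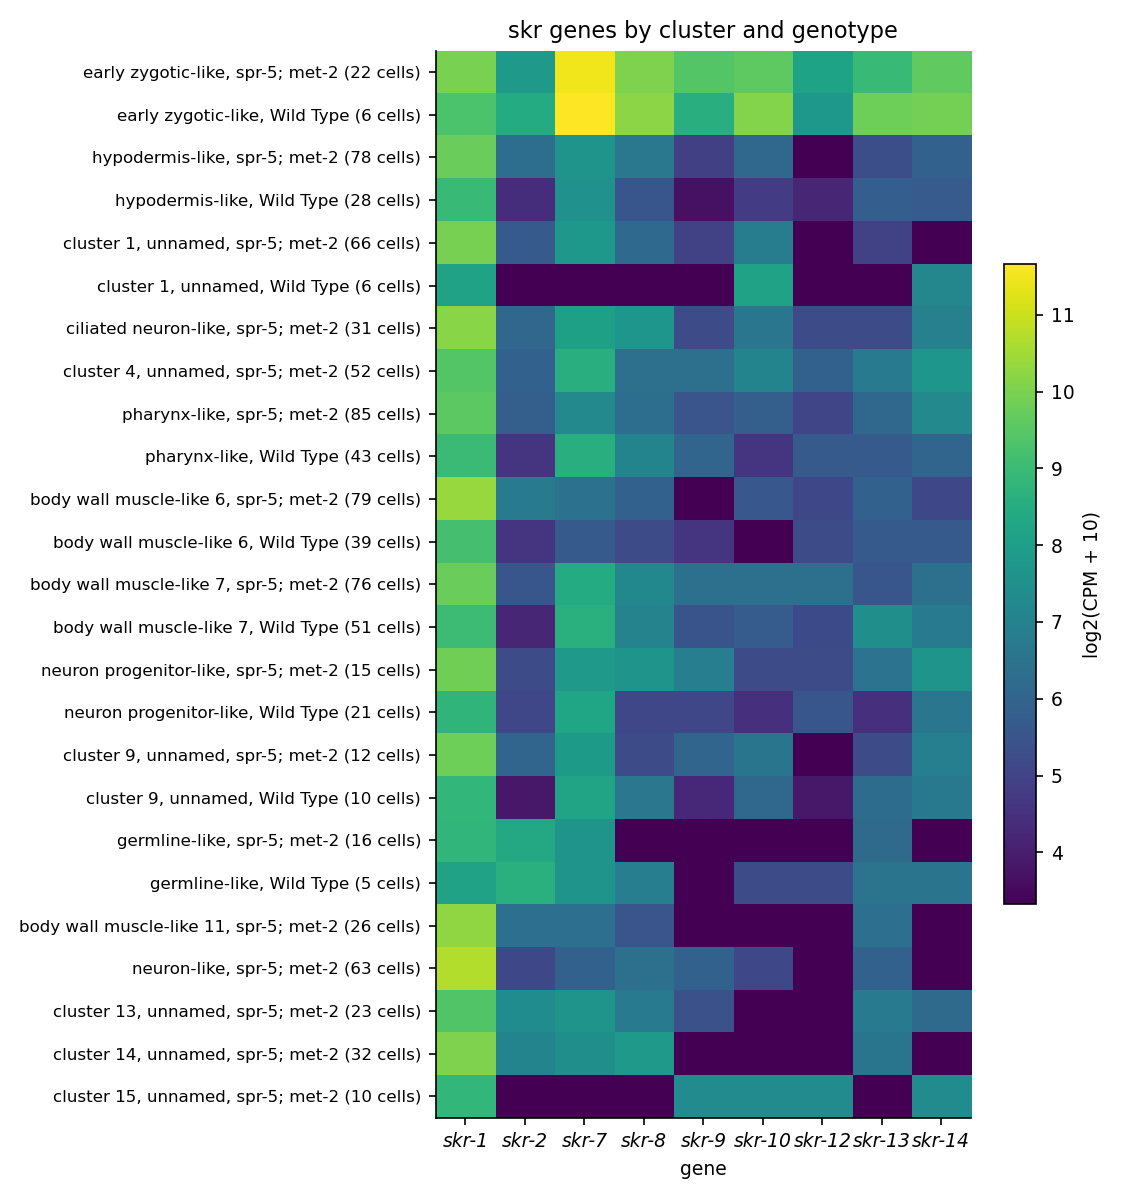
Level of each *skr* gene, as log2(CPM + 10) of the summed cells, in each cluster (rows) with at least 5 cells of that genotype, mutants above Wild Type. The 7 genes from *skr-7* to *skr-14* are brightest in the early zygotic-like rows of both genotypes, *skr-1* is bright in every row, and dark squares of *skr-2* and the others in small clusters rest on few UMIs.

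Within the early zygotic-like cluster the level varied widely between cells. The sum of *skr-7*, *skr-8*, *skr-9* and *skr-10* ranged from 1 to 46 UMIs per mutant cell with a median of 5, and was 67, 34, 30, 15, 13 and 12 UMIs in the 6 Wild Type cells. Every cell of the cluster held at least 1 such UMI in both libraries. Scaled by the depth of each cell, the sum was 1063 CPM in the lowest mutant cell, 4476 CPM in the median and 13079 CPM in the highest. In Wild Type the lowest cell had 2363 CPM, the median 4816 CPM and the highest 13432 CPM, so the cells of both genotypes covered an overlapping range.

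*skr-7* was found in 21 of 22 mutant cells and in all 6 Wild Type cells of the cluster, where it had 30, 19, 18, 10, 10 and 7 UMIs. *skr-9* was found in 9 of the 22 mutant cells and 5 of the 6 Wild Type cells. UMIs of at least 4 of the 7 single-exon members were found in 14 of 22 mutant cells and 6 of 6 Wild Type cells of the cluster, against 10 of 664 and 19 of 213 other cells. The cells of the cluster were deeper, and this count was not repeated at equal depth. The 10 cells with the most *skr-9* UMIs held 62.1% of them in the mutants and 65.4% in Wild Type, and the 10 highest cells held 9.54% and 34.4% of *skr-1* UMIs. Such a share is higher for a gene with few UMIs, and *skr-9* had 58 and 26 UMIs against 702 and 488 of *skr-1*. These shares therefore cannot show whether *skr-9* was gathered in fewer cells.

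**Figure D3:**
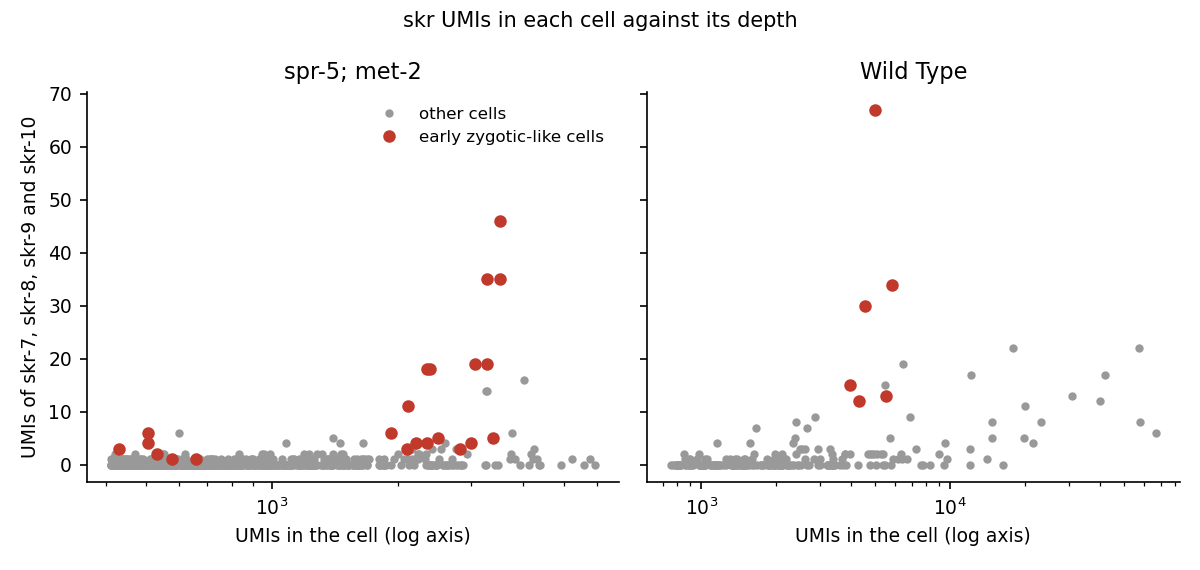
UMIs of *skr-7*, *skr-8*, *skr-9* and *skr-10* summed in each cell against all UMIs of that cell (log axis), in *spr-5; met-2* mutants on the left and Wild Type on the right, with early zygotic-like cells in red. The highest cell of each library, with 46 UMIs in the mutants and 67 UMIs in Wild Type, was in the early zygotic-like cluster, and 6 mutant cells of the cluster were shallow, with 1 to 6 UMIs of these genes.

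High cells were also found outside the cluster. At least 10 UMIs of the 4 genes were found in 11 mutant cells, 8 of them in the cluster, and in 15 Wild Type cells, 6 of them in the cluster. The Wild Type cells included the largest barcodes, in which more UMIs of every gene are seen. To compare cells at 1 depth, 500 UMIs were drawn from every cell, which left out 162 mutant cells. A UMI of the 4 genes was then found in 16 of 21 mutant (76.2%) and 5 of 6 Wild Type (83.3%) early zygotic-like cells, against 15.7% and 14.6% of other cells. Before thinning the 4 genes were found in 26.2% of all mutant cells and 41.1% of all Wild Type cells, and after it in 18.1% (14.9 to 21.7) and 16.4% (11.8 to 22.02). Body wall muscle-like cells, which are among the other cells, had shares of 15.9% and 8.79% at that depth, and these rested mostly on cluster 7. In cluster 7 the share was 26.7% (16.1 to 39.7) in the mutants and 15.7% (7.02 to 28.6) in Wild Type. In cluster 6 it was 12.2% (5.71 to 21.8) in the mutants and 0 of 39 cells in Wild Type (0% to 9.03%). The level of the 4 genes differed in the same way, with 624 CPM in mutant and 580 CPM in Wild Type cells of cluster 7, against 163 and 82.0 CPM in cluster 6.

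Barcodes with at most 200 UMIs were taken as free RNA, and they held all 9 genes. There were 6636 of them with 803312 UMIs in the mutants and 9121 with 567418 UMIs in Wild Type. The cells held 33.1% of the UMIs of all mutant barcodes and 59.8% of those of Wild Type. Whether the barcodes taken as free RNA also held shallow cells was not tested. The sum of *skr-7*, *skr-8*, *skr-9* and *skr-10* had 720 CPM in the free RNA of the mutants and 650 CPM in that of Wild Type. Cells outside the early zygotic-like cluster had 377 and 354 CPM, and those of cluster 7 had 624 and 580 CPM. The part of free RNA in the levels and shares of these cells was not tested. For *skr-7* the level in cells was 1.04 times that in free RNA in the mutants and 0.98 times in Wild Type. *skr-9* differed from this. It had 79.2 CPM in mutant cells against 107 CPM in their free RNA, a ratio of 0.74 (0.52 to 1.04), and 25.7 CPM in Wild Type cells against 107.5 CPM in their free RNA, a ratio of 0.24 (0.14 to 0.38). *skr-10* was also lower in Wild Type cells than in their free RNA, at 0.61 (0.42 to 0.88). The free RNA of the libraries had the same *skr-9* level, with a ratio of mutant over Wild Type of 0.996 (0.71 to 1.41), while the ratio in cells was above 1.

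**Figure D4:**
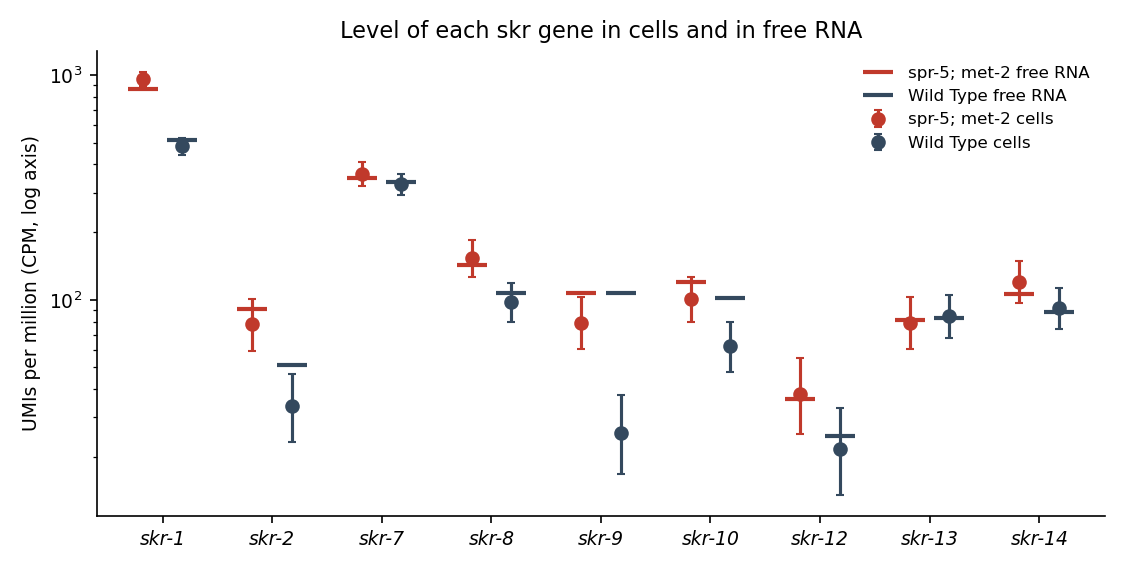
Level of each *skr* gene in CPM (log axis) in all cells summed, as points with 95% Poisson intervals, and in free RNA, as bars, with *spr-5; met-2* mutants to the left of Wild Type. Points and bars lie close for most genes, while *skr-9* lies at 25.7 CPM in Wild Type cells and 107.5 CPM in Wild Type free RNA. Without the 18 largest Wild Type barcodes, which is not drawn, *skr-9* had 44.2 CPM in Wild Type cells.

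The second comparison was between the genotypes. Over all cells *skr-1* had 959 CPM in the mutants, from 702 UMIs, and 482 CPM in Wild Type, from 488 UMIs, a ratio of 1.99 (1.77 to 2.24). *skr-2* had 77.9 CPM in the mutants and 33.6 CPM in Wild Type, a ratio of 2.32 (1.49 to 3.66) from 57 and 34 UMIs. *skr-9* had 79.2 CPM in the mutants and 25.7 CPM in Wild Type, a ratio of 3.09 (1.91 to 5.11) from 58 and 26 UMIs. *skr-8* had 153 and 97.7 CPM (1.57, 1.18 to 2.07), and *skr-10* had 101.1 and 62.2 CPM (1.63, 1.15 to 2.31).

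The other 4 members had intervals that included 1. *skr-7* had 363 CPM in the mutants and 327 CPM in Wild Type (1.11, 0.94 to 1.31). *skr-14* had 120 and 91.8 CPM (1.31, 0.97 to 1.77), *skr-12* had 38.2 and 21.7 CPM (1.76, 0.97 to 3.23), and *skr-13* had 79.2 and 84.9 CPM (0.93, 0.66 to 1.32).

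Of the 9 members 2, *skr-2* and *skr-9*, had a ratio above 2, where 20.9% of all 6839 genes with at least 20 UMIs did, and 0 had a ratio below 0.5, where 5.35% did. An interval above 1 was found for 5 members, where 34% of genes had one, an interval below 1 for 0 members, where 13.7% had one, and 8 of 9 members lay above 1 by point value, where 63.4% of genes did. The median ratio was 1.63 over the members and 1.21 over all genes. Scaling by the median of ratios in place of total UMIs divides every ratio by 1.37 (0.45 on the log2 scale). The share of higher genes among those whose interval leaves out 1 was then 35.6%, against 71.3% with total UMIs. On that scaling *skr-1* was at 1.46 (1.30 to 1.64), *skr-2* at 1.70 (1.09 to 2.68) and *skr-9* at 2.26 (1.4003 to 3.74), and 16.8% of all genes had an interval above 1. By point value 6 members were then above 1, where 41.7% of genes were. *skr-7* was at 0.81 (0.69 to 0.96) and *skr-13* at 0.68 (0.48 to 0.96), where 30.4% of genes had an interval below 1.

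The sum of *skr-7*, *skr-8*, *skr-9* and *skr-10* had 697 CPM in the mutants and 512 CPM in Wild Type, a ratio of 1.36 (1.20 to 1.54). This ratio moved with which cells were counted. Outside the early zygotic-like cluster it was 1.06 (0.90 to 1.25). Inside the cluster it was 0.91 (0.75 to 1.12), with 5365 CPM in the mutants and 5867 CPM in Wild Type, from 22 and 6 cells. Both intervals included 1, and the cluster held 6.42% of all mutant UMIs and 2.88% of all Wild Type UMIs. Without the 18 largest Wild Type barcodes, in which the sum had 329 CPM against 685 CPM in the remaining Wild Type cells, the ratio of all mutant cells was 1.02 (0.89 to 1.17). The ratio of *skr-9* without those barcodes was 1.79 (1.09 to 3.05). It was 1.04 when 500 UMIs were drawn from every cell, from 15 mutant and 6 Wild Type UMIs. *skr-2* was at 1.25 in the same draw, from 12 and 4 UMIs, and at 2.55 when 250 UMIs were drawn, from 8 and 1 UMIs. *skr-2* was at 2.81 (1.69 to 4.81) outside the early zygotic-like cluster. It was at 4.41 over clusters at the same weight, each of which held only 1 to 4 Wild Type UMIs of it. *skr-7*, whose interval included 1 over all cells, was at 0.79 (0.64 to 0.99) outside the early zygotic-like cluster.

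*skr-1* was also compared within clusters. In 6 of the 16 clusters both genotypes had 10 or more cells, and there *skr-1* was higher in the mutants in all 6, by ratios of 1.47 to 2.28 with a median of 1.86, and the interval was above 1 in 5. It had 846 CPM in mutant and 494 CPM in Wild Type hypodermis-like cells, 1307 and 574 CPM in the body wall muscle-like cells of cluster 6, and 849 and 519 CPM in those of cluster 7. It had 920 and 430 CPM in neuron progenitor-like cells, 900 and 448 CPM in the unnamed cluster 9, and 737 and 503 CPM in pharynx-like cells, where the ratio of 1.47 had an interval that included 1 (0.96 to 2.28). The neuron progenitor-like name rests on 4 of 7 listed markers and the pharynx-like name on 3 of 8. None of these markers was among the 10 leading genes of its cluster. Summed neuron progenitor markers had 1351 CPM in the cluster of that name and 1721 CPM in the early zygotic-like cluster. The 6 *skr-1* ratios are on total UMIs. Median of ratios scaling divides each by 1.37, and only cluster 6 had a lower bound above that, at 1.58. How many of all genes have an interval above 1 in 5 clusters was not counted. The highest level of *skr-1* in a named cluster was 1647 CPM in mutant neuron-like cells, a cluster with 63 mutant and 2 Wild Type cells, so no ratio is given there. At 500 UMIs per cell *skr-1* was found in 39.7% of mutant cells (35.5 to 44.0) and 19.2% of Wild Type cells (14.2 to 25.03). At 250 UMIs per cell, a depth that kept every mutant cell, it was found in 20.6% (17.6 to 23.8) and 15.98% (11.4 to 21.5), and these intervals overlap. The free RNA of the mutants also held more *skr-1*, with 863 CPM against 516 CPM in that of Wild Type, a ratio of 1.67 (1.46 to 1.92), and the part of free RNA in the ratio of the cells was not tested.

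**Figure D5:**
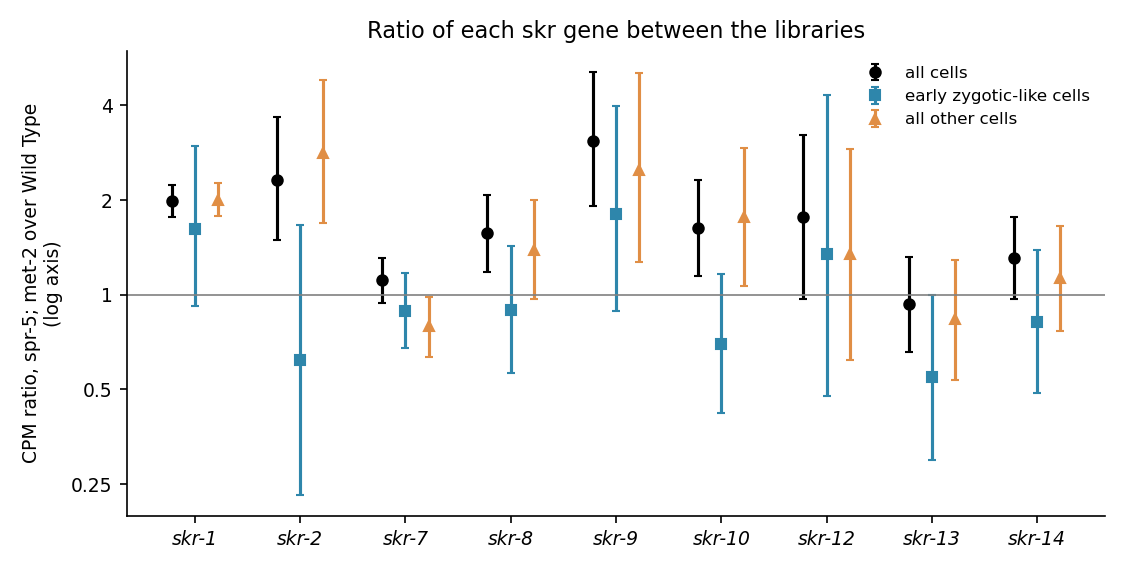
Ratio of CPM in *spr-5; met-2* mutants over Wild Type for each *skr* gene (log axis), over all cells, in the early zygotic-like cells (22 mutant and 6 Wild Type cells) and in all other cells, with exact 95% intervals for counting error. *skr-1* lies near 2 over all cells and in the other cells, *skr-9* has the highest ratio over all cells at 3.09, and *skr-7* and *skr-13* lie near or below 1.

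The remaining members had few UMIs per cluster. *skr-1*, *skr-2* and *skr-10* were the 3 members higher in the mutants in all 6 clusters by point value, where 9.96% of genes were, but no interval of *skr-10* and 1 interval of *skr-2* lay above 1. *skr-2* was highest in germline-like cells, with 316 CPM in the mutants and 380 CPM in Wild Type, from 5 and 14 UMIs. *skr-7* had 143 CPM in mutant and 377 CPM in Wild Type pharynx-like cells, a ratio of 0.38 (0.17 to 0.77). At Leiden resolution 2.0 the cluster named pharynx-like held 42 mutant and 4 Wild Type cells. Whether the pharynx-like cells of the genotypes were alike was not tested. *skr-8* had a ratio of 7.71 (1.47 to 76.1) in neuron progenitor-like cells, from 7 mutant and 2 Wild Type UMIs. *skr-13* had a ratio of 0.22 (0.04 to 0.76) in cluster 7, from 3 and 19 UMIs. The sum of *skr-7*, *skr-8*, *skr-9* and *skr-10* had a ratio of 0.52 (0.30 to 0.87) in pharynx-like cells and of 1.54 (1.01 to 2.31) in hypodermis-like cells. In the other clusters compared the sum had ratios from 0.90 to 1.99, with intervals that included 1. Of the 28 Wild Type hypodermis-like cells 9 were among the largest barcodes, and without them the ratio of the sum there was 1.86 (1.02 to 3.53).

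Members were often seen in the same cells. In Wild Type 15 cells held both *skr-9* and *skr-7*, which was 78.9% of the 19 cells with *skr-9* and 18.99% of the 79 cells with *skr-7*. In the mutants 14 cells held both, 43.8% of the 32 cells with *skr-9* and 12.5% of the 112 cells with *skr-7*. *skr-14* was found with its neighbour *skr-7* in 30 mutant cells, 55.6% of the cells with *skr-14* and 26.8% of those with *skr-7*. In Wild Type both were found in 34 cells, 87.2% of the cells with *skr-14* and 43.0% of those with *skr-7*. Deep cells hold more genes of every kind, so these shares differ with depth as well.

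The genes most like *skr-9* and *skr-10* summed were ranked by the lower of the 2 per-library Pearson correlations over cells, among 2679 genes. All cells of a library share their source and differ in depth, so these are descriptions. *dsl-2* came first, with r = 0.32 in the mutants and 0.41 in Wild Type. It was followed by *sepa-1*, a scaffold that gathers P granule components for autophagy (0.27 and 0.47), *btb-6*, a gene of the BTB domain family (0.22 and 0.40), and *pyr-1*, which encodes the enzyme that starts pyrimidine synthesis (0.22 and 0.23). *fbxb-91*, a gene of an F-box family (0.22 and 0.40), *nhr-2*, a nuclear hormone receptor gene of early embryos (0.21 and 0.32), *T05D4.2* (0.21 and 0.43) and *B0281.5* (0.20 and 0.38) came next. Among the members, *skr-7* (0.28 and 0.46), *skr-8* (0.25 and 0.50) and *skr-14* (0.25 and 0.41) had correlations of that size, while *skr-1* had 0.078 and 0.098. The highest correlations with *skr-1* were weak in both libraries, with 0.16 and 0.17 for *arf-3*.

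Of 35 listed genes of the SCF pathway 32 had at least 20 UMIs. Their median ratio of mutant over Wild Type was 1.24, beside 1.21 over all genes. A ratio above 2 was found for 5 (15.6%, where 20.9% of all genes had one) and a ratio below 0.5 for 1 (3.13%, where 5.35% did). An interval above 1 was found for 13 (40.6%, against 34% of all genes) and an interval below 1 for 3 (9.38%, against 13.7%), so the list lay near the shares of all genes. *cul-1*, the cullin that Skp1 binds, *lin-23*, *mec-15* and *ned-8* are named here after their values were seen. *cul-1* had 94.3 CPM in the mutants and 60.2 CPM in Wild Type (1.57, 1.09 to 2.25). The ubiquitin-conjugating enzyme genes *let-70* and *ubc-3* had ratios of 2.001 (1.66 to 2.42) and 1.26 (1.06 to 1.49), and *rbx-1*, the RING subunit, had 180 CPM in the mutants and 195 CPM in Wild Type.

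Among F-box receptor genes *lin-23* had a ratio of 1.99 (1.43 to 2.78), *sel-10* had 86.1 CPM in the mutants and 39.5 CPM in Wild Type (2.18, 1.44 to 3.33), and *mec-15* had 32.8 and 54.3 CPM (0.60, 0.36 to 0.99). *ned-8*, the ubiquitin-like protein that activates cullins, had a ratio of 0.66 (0.48 to 0.90). Of other cullin ligase genes *cul-2* had a ratio of 1.62, *ddb-1* of 2.32 (1.46 to 3.75) and *elb-1* of 0.49 (0.34 to 0.72). Of genes whose proteins are degraded in the early embryo, *oma-1* had 29 UMIs in the mutants and 1 UMI in Wild Type (40.1, 6.65 to 1639) and *cdc-25.1* had a ratio of 2.70 (1.56 to 4.81).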

How the data were processed

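The authors deposited raw UMI counts from droplet 3′ libraries, 1 per genotype, for which the submitters' processing notes name Cell Ranger 3.0.2, Seurat and ce11. The 686 mutant and 219 Wild Type barcodes of highest total were treated as cells, and Scrublet calls (3 mutant, 10 Wild Type) were kept. Counts per cell were normalized to 10000 and clustered in Scanpy 1.11.5 (Python 3.11.15; scipy 1.17.1) at Leiden resolution 1.0, without the *skr* genes. CPM has Poisson intervals, ratios (mutant over Wild Type) exact conditional binomial intervals, and shares Clopper-Pearson intervals, all at 95%. Genes named are the members, other *skr* genes with at least 20 UMIs, the 4 most abundant SCF genes and those past 2-fold (4 further SCF genes were added after their values were seen), genes most alike over cells, and leading genes of the early cluster. Members and lists were chosen with earlier results of these data known. On simulated data for this comparison of 6790 genes the interval covered the true ratio for 96.6%. The simulated totals were independent Poisson counts, which the interval assumes, so this was no check for UMIs gathered in few cells. Alternatives changed the cells kept, largest barcodes, doublets, scaling, cell weight, depth drawn, cell makeup, pseudocount, gene filter and resolution. Leaving out the early cluster, the shared barcodes or the largest barcodes of the hypodermis-like cells was chosen after seeing the data. No sequences were used here.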

Additional observations from a re-analysis of the deposited data

How the results depend on the processing

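No paired analysis was possible because there is 1 library per genotype. The ratio of *skr-7*, *skr-8*, *skr-9* and *skr-10* summed, 1.36, was 1.02 without barcodes over 10000 UMIs and with each cell at the same weight, 1.11 with 500 UMIs drawn per cell, 1.05 over clusters at the same weight and 1.06 without the early zygotic-like cluster. It reversed to 0.996 with median of ratios scaling and 0.925 with 250 UMIs drawn. The ratio of *skr-12*, *skr-13* and *skr-14* summed, 1.20, fell below 1 at 0.931 without the largest barcodes, 0.877 with median of ratios scaling, 0.965 with equal cell weight and 0.718 with 250 UMIs drawn. *skr-1* and *skr-2* summed, 2.01, were at 1.47 with median of ratios scaling, 2.37 with 500 and 1.56 with 250 UMIs drawn. The number of members past 2-fold, 2, was 0 without the largest barcodes and 1 with median of ratios scaling, equal cell weight, 500 or 250 UMIs drawn, but 3 with only cells of at least 500 UMIs, over clusters at the same weight and without the early zygotic-like cluster. *skr-10* reversed to 0.958 with 250 UMIs drawn. The share of mutant cells with a UMI of the 4 genes, 18.1% at 500 UMIs, was 9.77% at 250 UMIs. The 13 intervals above 1 among SCF genes were 6 with median of ratios scaling (18.8%, where 16.8% of all genes had one). The ratios of the 9 single members stayed within their own intervals without called doublets, without cells under 500 UMIs and without shared barcodes, while 4 of 9 left them with median of ratios scaling, 5 with 500 UMIs drawn, 3 without the largest barcodes and 1 without the early zygotic-like cluster. The cause of these differences was not tested. The early zygotic-like cluster kept 26 of its 28 cells at resolution 0.5 and 27 at 2.0, where the 4 genes had 5754 and 5639 CPM in its mutant cells. Depth limits the members with the fewest UMIs, *skr-9* and *skr-12* above all.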

Other observations

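The other *skr* genes differed among themselves. *skr-15*, a gene with a single exon, shared the pattern of the single-exon members. It had 341 CPM in the early zygotic-like cells of the mutants against 17.5 CPM in other mutant cells, and 309 against 13.2 CPM in Wild Type. *skr-16*, *skr-19*, *skr-20* and *skr-21* also had a single exon but had lower folds in that cluster. These were 2.78, 0.71, 1.39 and 0.98 in the mutants, and 2.91, 0.95, 1.90 and 0.67 in Wild Type. *skr-20* went the other way between genotypes from most of the family, with 23 UMIs in the mutants and 75 UMIs in Wild Type, a ratio of 0.42 (0.25 to 0.68), and it was higher in the mutants in 0 of the 6 clusters compared. Its neighbours on the X chromosome, *skr-19* and *skr-21*, had ratios of 0.98 and 0.86 (0.71 to 1.03). *skr-18* had a ratio of 1.73 (1.06 to 2.85) and *skr-16* of 1.10. *skr-4*, *skr-5* and *skr-6* had 0 UMIs in the cells of both libraries.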
